A study of Mus musculus with 2 samples.

Results

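Immediate early genes are transcribed within minutes of a stimulus, without new protein synthesis, and encode transcription factors and regulators that pass the signal on to later genes. FOS and JUN proteins pair to form AP-1, EGR proteins are zinc finger activators, and NR4A proteins are orphan nuclear receptors. In T cells all of these families respond to the T cell receptor through ERK, other MAP kinases and calcium, and Nr4a1 and Egr2 are widely used as readouts of receptor signal strength. The same genes are also known to respond to the handling of tissue during cell isolation.

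The genes described here were Fos, Fosb, Jun, Junb, Jund, Egr1, Egr2, Egr3, Nr4a1 and Nr4a2. They were chosen by name and found as the gene probes whose RefSeq accession resolved to 1 of these symbols, which gave 11 probes for the 10 genes, of 20887 named genes in all. RNA came from small intestinal TCRαβ+ CD8αα+ intraepithelial lymphocytes (IELs), which are T cells of the gut epithelium that carry CD8α without CD8β. Control mice were Rbpjf/f and RFF4 mice were CD4-Cre Rbpjf/f, so both carried the floxed allele of Rbpj, the DNA-binding partner of the Notch intracellular domain. Mice of both groups were C57BL/6, male and female pooled, and 8 to 12 weeks old. The labels name no Cre for the Control mice, whereas the study's text describes controls with CD4-Cre and without a floxed allele, and the 2 accounts were not reconciled. The CD4 promoter drives Cre in T cells from the thymic stage that carries both CD4 and CD8 onward, so other T cells that pass through that stage are targeted as well, and cells outside the T lineage are not. IELs were released with EDTA and purified on Percoll, CD4+ and TCRγδ+ cells were depleted, and cells positive for TCRβ and negative for TCRγδ, CD4 and CD8β were sorted.

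The study used the arrays to look for Notch target genes in these cells. Elsewhere it asked whether tonic T cell receptor signaling depended on Rbpj, and by flow cytometry it found equivalent phosphorylated ERK with and without Rbpj. RNA from several isolations was pooled per genotype and hybridized to 1 one-colour Agilent array per group, with both arrays on the same slide and in the same scan. With 1 array per group there was no replicate check, no test between genotypes was possible, and every difference below compares these 2 pools. In such bulk RNA, fewer cells of a type and less RNA per cell cannot be told apart. Values are log2 of the background-subtracted signal relative to the 75th percentile of the array, and a difference is the array labelled RFF4 minus Control. A change was called when it exceeded 2-fold. The spread of repeated spots, over 245 Control and 217 RFF4 probes with 10 spots well above background, gave a technical SD of 0.16 for a difference between single spots, which applies to all of the 10 genes but Fos. That SD was 0.31 when the dim ones among the 255 probes with 10 spots were included.

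The arrays differed in brightness before scaling. The 75th percentile of log2 signal was 8.99 on Control and 7.82 on the other array, and 57.2% and 49.7% of gene spots were well above background. Rbpj itself was not lower on the array labelled RFF4 under 75th percentile scaling, although it read -0.80 when spike-in controls were set equal. Its brighter probe read 1.96 on Control and 2.28 on the other array, a difference of 0.32, and its other probe differed by 0.82. The position of the probes with respect to the floxed exons is not known here, so they neither bear out nor contradict the genotype label.

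Before the values, the proximal promoters of the genes are shown, since signals reach immediate early genes through short elements near the start site. RefSeq windows of assembly GRCm38.p6, from 250 bases before to 50 after the start site, were at hand for 8 of the 10 genes, in 12 windows, and were searched on both strands, with Egr1 and Egr3 not shown. The CRE core TGACG is recognized by CREB and ATF factors and contained in the full CRE TGACGTCA. It occurred in 6 of the 8 genes and in 8 of their 12 windows, compared with 20.8% of all 32851 windows. The stretches below were chosen to show how these matches lie in the FOS, EGR and NR4A genes. Capitals mark the CRE core on either strand, where CGTCA is its reverse complement, and also an EGR motif GCGNGGGCG or a CArG box (CC, 6 A or T, GG) where named.
Fos, chr12:85473812-85473840, plus strand, CRE core: agttccgcccagTGACGtaggaagtccat
Fosb, chr7:19310075-19310117, minus strand, CRE core and EGR motif: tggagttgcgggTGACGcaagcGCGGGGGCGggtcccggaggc
Egr2, chr10:67537785-67537830, plus strand, CArG box and CRE core: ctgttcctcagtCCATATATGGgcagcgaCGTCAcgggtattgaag
Nr4a1, chr15:101266765-101266822, plus strand, 2 CRE cores around an EGR motif: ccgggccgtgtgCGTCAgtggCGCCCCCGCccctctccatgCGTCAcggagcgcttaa
Nr4a2, chr2:57124098-57124159, minus strand, 3 CRE cores: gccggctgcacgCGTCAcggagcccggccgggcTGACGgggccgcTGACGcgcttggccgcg

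Nr4a1 and Nr4a2 had 4 CRE cores each in their windows, and Fos had 2. The EGR motif was found in Fosb, Nr4a1 and Nr4a2, in 3 of the 12 windows, compared with 5.55% of all windows. A CArG box, the element bound by serum response factor, was found only in Egr2 among the 8 genes, compared with 1.63% of all windows. Egr2 has several windows, of which 4 held a CArG box and some overlap, so they are not independent, and those with a CRE core share the stretch shown. The full CRE (1.79% of all windows), the AP-1 site TGANTCA (7.81%) and the NR4A element AAAGGTCA (1.51%) had no match in any of the 8. The core TGGGAA of the motif bound by RBPJ occurred in Jun and Jund, in 2 of the 12 windows, compared with 25.6% of all windows. These 2 stretches are shown because Rbpj is the gene targeted in RFF4 mice.
Jun, chr4:95052266-95052295, minus strand: gacgcaagccaaTGGGAAagcctcggggtg
Jund, chr8:70697540-70697569, plus strand: cacatctgtaagTTCCCAgccagccccagc
These are matches of letters, not shown to be sites in use, and a motif missing from the window may lie outside it.

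**Figure D1:**
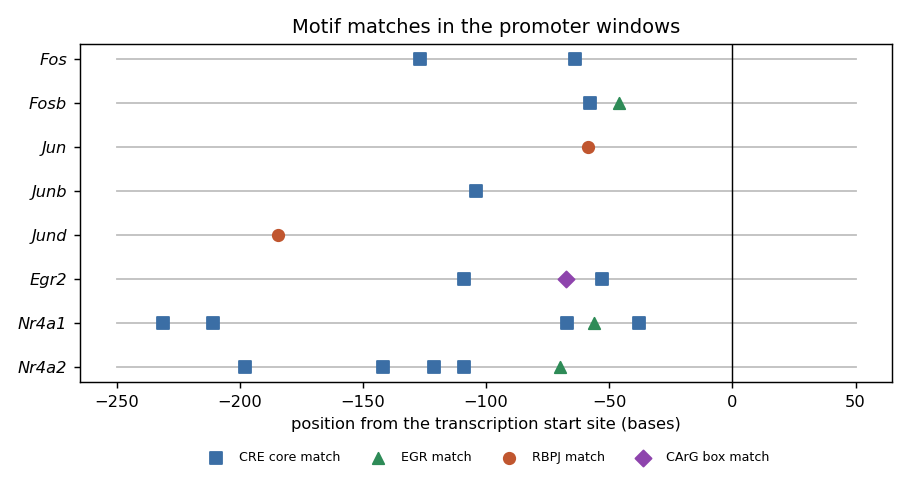
Positions of motif matches in the promoter windows of 8 immediate early genes, in bases from the transcription start site (0), with grey lines for the windows of 250 bases before to 50 after it. CRE cores lie in 6 genes and 8 of their 12 windows, compared with 20.8% of all windows, with 4 each in Nr4a1 and Nr4a2. The core TGGGAA of the RBPJ motif lies in Jun and Jund, 2 of the 12 windows, compared with 25.6% of all windows. For Egr2 1 of its windows is drawn.

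None of the 10 genes passed 2-fold in either direction. Of the 9 that had a difference, 7 read higher on the array labelled RFF4 and 2 lower, from -0.34 for Nr4a2 to 0.66 for Jun, with a median of 0.20. Over all 13513 genes with a difference the median was -0.015, and past 2-fold there were 5.05% lower and 12.3% higher. The range between Nr4a2 and Jun also held 54.1% of those genes. How many of the 9 read higher depended on the scaling, as described further on.

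**Figure D2:**
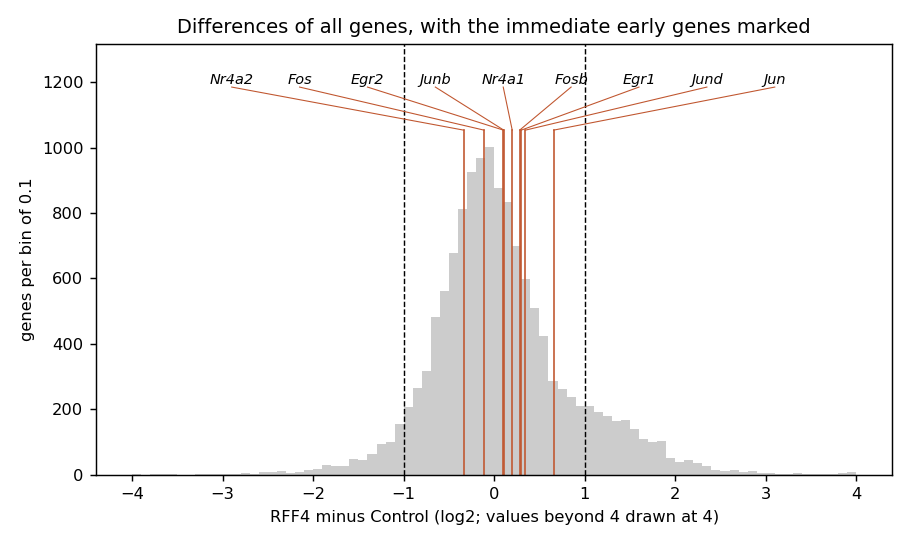
Histogram of RFF4 minus Control (log2, bins of 0.1) for 13513 genes, with the 9 immediate early genes that had a difference marked by red lines and 2-fold by dashed lines. All 9 lie between the dashed lines, Nr4a2 lowest at -0.34 and Jun highest at 0.66.

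FOS proteins bind DNA only as partners of JUN proteins. Fos, the prototype of the family, was the most precisely measured of the 10 genes because its probe was spotted 10 times on each array. The spots read between 19820 and 20866 on Control and between 8180 and 8571 on the other array before scaling, with spot SDs of 0.024 and 0.023 on the log2 scale. After scaling, Fos was 5.32 on Control and 5.21 on the array labelled RFF4, a difference of -0.11. The unscaled signals did not overlap, but of their difference of -1.28 the scaling took up 1.17, the gap between the 75th percentiles. What remained was more than the technical SD of 0.010 that the spots of Fos itself give for a mean of 10, though an SD over spots does not cover the choice of scaling. Fosb, a FOS protein with a strong activation domain, read 4.90 and 5.18, a difference of 0.28. The 2 FOS genes thus lay on either side of 0, and Fosb exceeded Fos in its difference by 0.39, against a technical SD of 0.16 for a gap to Fos.

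JUN proteins pair with FOS or with each other, and all 3 read higher on the array labelled RFF4 under 75th percentile scaling. Jun, the JUN protein most closely tied to JNK signaling, read 6.67 on Control and 7.32 on the other array. Its difference of 0.66, or 1.58-fold, was the highest among the 9 genes, and 81.6% of all genes had a lower one. Jund, which many resting cells express constitutively, read 7.11 and 7.45, a difference of 0.34. Junb, which can restrain Jun and takes part in T cell differentiation, read 3.96 and 4.07, a difference of 0.11. The difference of Jun was above that of Jund by 0.31 and above that of Junb by 0.55, against a technical SD of a gap of 0.22, or 0.44 with dim probes included. The Jun to Junb gap depended on the processing and was 0.091 under quantile normalization. Apart from the spike-in setting, Jund turned lower under quantile normalization and cyclic loess, at -0.20 and -0.11. Junb turned lower under median scaling, cyclic loess and normexp, at -0.069, -0.089 and -0.13.

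The EGR genes encode zinc finger factors induced downstream of ERK, and Egr2 and Egr3 also take part in T cell anergy and in the development of natural killer T cells. Egr1 read 3.73 on Control and 4.03 on the array labelled RFF4, a difference of 0.30. Egr2 read 1.03 and 1.13, a difference of 0.10 that was within the technical SD. The differences of Egr1 and Egr2 were 0.20 apart, less than the technical SD of a gap. Egr3 was not well above background on either array, with signals of 5.10 and 3.34 before scaling, so no difference could be given for it.

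NR4A receptors act without a known physiological ligand and are induced by antigen receptor signals. Nr4a1, whose product is Nur77, read 6.40 on Control and 6.60 on the array labelled RFF4, a difference of 0.20. Nr4a2, whose product is Nurr1, was the gene with the lowest difference and the only 1 of the 10 with 2 probes. Its brighter probe read 7.04 and 6.71, a difference of -0.34, and its second probe read 5.35 and 4.70, a difference of -0.65. Both probes were lower on the array labelled RFF4, and 27.4% of all genes had a lower difference than the brighter probe. Between the 2 receptors the differences were 0.54 apart.

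**Figure D3:**
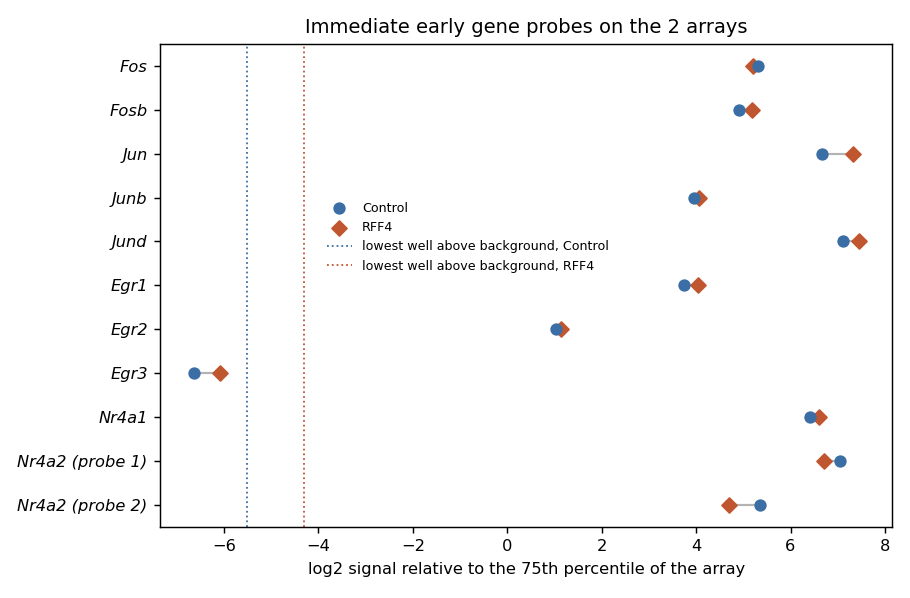
Level of each of the 11 probes on the Control (circle) and RFF4 (diamond) array, as log2 signal relative to the 75th percentile of the array, with dotted lines at the lowest signal well above background on each. Both Nr4a2 probes lie lower on the array labelled RFF4, the 3 JUN genes lie higher, and Egr3 lies below both dotted lines.

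A scaling by 1 constant moves all genes of an array together and leaves the gaps between their differences as they are, whereas quantile normalization, cyclic loess and normexp also move the gaps. Ordered by difference, the genes ran from Nr4a2 through Fos, Egr2, Junb, Nr4a1, Fosb, Egr1 and Jund to Jun. Of the 8 gaps between neighbours, 3 exceeded their technical SD, namely Nr4a2 to Fos at 0.22 and Fos to Egr2 at 0.21, both against 0.16, and Jund to Jun at 0.31 against 0.22. None exceeded the SD that includes dim probes. The 6 neighbours from Egr2 to Jund were each within the technical SD of the next. Jun exceeded Nr4a2 by 0.99 and Fos by 0.77 in its difference. Over the 10 processing alternatives the Jun to Nr4a2 gap ran from 0.97 to 1.15 and the Jun to Fos gap from 0.41 to 0.77. Nr4a1 stayed above Nr4a2 by 0.53 to 0.69, but Jun to Junb ran from 0.091 to 0.55 and Jund to Junb from -0.27 to 0.24, which changed sign.

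The signs were less firm. Setting the 8 spike-in controls equal in place of the 75th percentile put all 9 genes lower, from -1.46 for Nr4a2 to -0.47 for Jun, with Nr4a2, Fos, Egr2 and Junb, 4 genes, past 2-fold. The same setting moved the median of all genes by -1.09 and put 56.9% of all genes more than 2-fold lower, so the shift was one of the whole array. Median scaling moved the median of all genes by -0.17 and left 5 of the 9 higher, and cyclic loess moved it by -0.12 and left 4 higher. Quantile normalization left 5 higher, with Egr1 highest at 0.27, and normexp background correction left 4. Nr4a2 and Fos were lower under each of the 10 alternatives, and Jun, Fosb and Egr1 were higher under 9 of the 10, the exception being the spike-in setting. Several of the 10 could hardly move these genes and add little to such counts. They were the normalized table, both filters, kept outlier spots and, for all but Nr4a2, the mean of a gene's probes. Which scaling comes closest to RNA per cell was not tested.

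**Figure D4:**
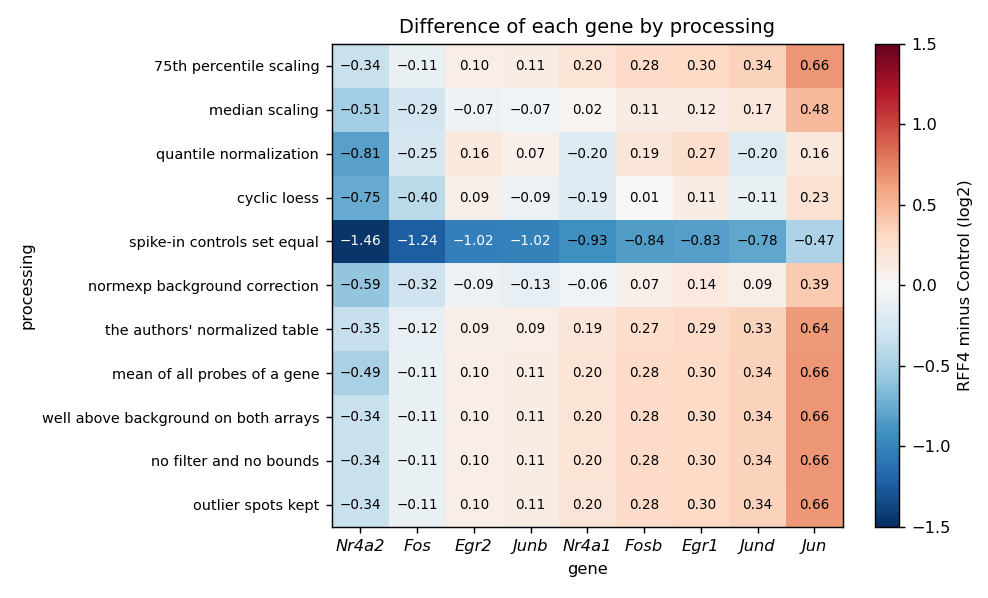
RFF4 minus Control (log2; colour and printed value) of the 9 genes (columns, ordered by difference) under 75th percentile scaling and 10 alternatives (lines of cells). Nr4a2 is lowest throughout, and the spike-in setting turns every gene negative, from -1.46 to -0.47.

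The rest of the AP-1 family comprised Fosl1, Fosl2, Batf, Batf2, Batf3, Atf3 and Jdp2, all 7 of which had a difference, with a median of 0.081. Batf2, an interferon-responsive member, read -0.30 on Control and 1.87 on the other array, a difference of 2.17. Fosl1, a late FOS-related partner, rose from -4.23 to -3.13, a difference of 1.096 near the lower end of the signals, but was within 2-fold with median scaling, quantile normalization, cyclic loess and normexp, at 0.86 to 0.98, and read -0.029 with the spike-in controls set equal. Jdp2, which represses AP-1 sites, fell by 1.13. Atf3, a stress-induced member, differed by 0.88, Batf by 0.081, Fosl2 by -0.038 and Batf3 by -0.33, none of them past 2-fold. The 2 probes of Fosl2 differed in sign, the second being at 0.65. So 2 of 7 were more than 2-fold higher and 1 lower, beside 12.3% and 5.05% of all genes, and Fosl1 lost its call under 5 of the 10 alternatives.

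Among the relatives and cofactors of EGR and NR4A, 4 of 5 genes had a difference, with a median of -0.30. Egr4 fell by 1.02, from -1.63 to -2.65, although it differed by only -0.17 after normexp background correction. Nr4a3, the remaining NR4A receptor, read 1.12 and 1.43, a difference of 0.31. The EGR corepressors Nab1 and Nab2, which EGR factors themselves induce, differed by -0.59 and by -0.0027, with a second Nab2 probe at 0.51. No member of this group was more than 2-fold higher, and Egr4 alone was lower, beside 5.05% of all genes.

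The factors and kinases upstream of these genes are read against the shares of all genes past 2-fold, 12.3% higher and 5.05% lower. Of 13 genes for SRF and its partners and for CREB and MEF2 factors, 12 had a difference, with a median of -0.26 and none past 2-fold, and Srf itself differed by -0.097, with a second probe at 0.17. Of 21 genes of the Ras, ERK, JNK and p38 cascade, 20 had a difference, with a median of -0.11. Braf, a kinase that activates MEK, was the only 1 past 2-fold and fell by 1.22, with both of its probes lower. Mapk3, which encodes the kinase ERK1 and was picked after its value was seen, differed by 0.38, with its other probe at 0.41. This is a transcript level and does not measure phosphorylation.

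Of 35 other immediate early genes, all had a difference, with a median of 0.12. Ier5l, a nuclear protein of the IER family, differed by 1.34, Klf2, which governs T cell trafficking, by 1.25, and Ier3, a survival-linked early gene, by 1.13. These 3 of 35 were the only ones past 2-fold, all higher, beside 12.3% of all genes, although with the spike-in controls set equal they read 0.22, 0.13 and 0.0037, and each was within 2-fold under at least 1 further alternative. Of 11 heat shock genes that tissue dissociation is known to induce, 10 had a difference, with a median of -0.018 and none past 2-fold, and Hspa1b was not analysed here. Whether isolation itself altered the immediate early genes was not tested.

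Among 14 genes induced by T cell receptor signaling the median difference was 0.17. The inhibitory receptor gene Pdcd1 read -0.95 on Control and 1.57 on the array labelled RFF4, a difference of 2.52. Xcl1, a chemokine of cytotoxic lymphocytes, differed by 1.71, Tnf by 1.44 and Irf4, a transcription factor graded with receptor signal, by 1.43. With the spike-in controls set equal, Pdcd1 stayed past 2-fold at 1.40 and Xcl1, Tnf and Irf4 did not, at 0.58, 0.32 and 0.31. Tnfrsf4, which encodes the costimulatory receptor OX40, fell by 1.21. Thus 4 of the 14 were more than 2-fold higher and 1 lower, beside 12.3% and 5.05% of all genes.

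Markers of several other cell types were higher on the array labelled RFF4. The cells had been sorted for TCRβ, and epithelial markers were also read on Control, at a median level of 3.22 beside 4.76 on the other array. All 16 markers of intestinal epithelial cells read higher, 14 of them more than 2-fold, with a median of 1.55, and their summed linear level was 222 on Control and 677 on the other array, in multiples of the 75th percentile. Of 15 markers of macrophages and dendritic cells 13 had a difference, all higher and 10 past 2-fold, with a median of 2.23 and a summed level of 76.4 and 170. That median was itself a bound, and it was 1.45 over the markers well above background on both arrays. The defining genes Cd74 and Lyz2 differed by 3.37 and 2.42, but Epcam by 0.40. With the spike-in controls set equal the medians were 0.43 for the epithelial and 0.72 for the macrophage and dendritic cell markers, while Cd74 read 2.24, Lyz2 1.30 and Epcam -0.72. Among markers of B and plasma cells, Cd79a and Pax5 were not well above background on either array, 3 were more than 2-fold higher (Mzb1 by 2.15, Ms4a1 by 1.79 and Jchain by 1.68) and the summed level was 26.0 and 58.2. Of 6 fibroblast and endothelial markers Dcn and Col3a1 were more than 2-fold higher, by 1.86 and 1.47, Pecam1 fell by 1.03, and Cdh5 was not well above background. To complete that list, Col1a2 differed by 0.89 and Col1a1 by -0.16, both within 2-fold. The 6 B, plasma, fibroblast and endothelial genes named as past 2-fold were, like Gzma below, picked after their values were seen. Of them only Mzb1 and Pecam1 stayed past it with the spike-in controls set equal, and Pecam1 was within it at -0.50 after normexp background correction. Cd4 differed by 0.13, but its second probe was well above background on Control alone and the mean of both probes differed by -0.59, and Cd8b1 was near background, at -3.52 on Control and not well above background on the other array. The part of these other cells in the values of the immediate early genes was not tested.

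Markers of the sorted cells themselves had small differences under 75th percentile scaling. Of 15 such markers 14 had a difference, with a median of 0.18, and Itgae was not analysed here. Cd3e, a signaling chain of the T cell receptor complex, read 8.10 and 8.44, and Cd8a read 6.25 and 6.18. Gzmb, the cytotoxic protease granzyme B, read 8.90 and 8.75. Over the alternatives other than the spike-in setting, the lowest differences were -0.25 for Cd3e, -0.43 for Cd8a and -0.80 for Gzmb. With the spike-in controls set equal Gzmb read -1.28. The paper reports fewer granzyme B-positive cells among Rbpj-deficient IELs by flow cytometry, which measures protein and not RNA. Gzma, which encodes granzyme A, was the 1 marker past 2-fold at 1.02, but was within it at 0.23 under quantile normalization. The medians of these markers and of the 9 immediate early genes were 0.18 and 0.20 under 75th percentile scaling, -0.23 and 0.071 under quantile normalization, and -0.24 and -0.089 under cyclic loess.

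**Figure D5:**
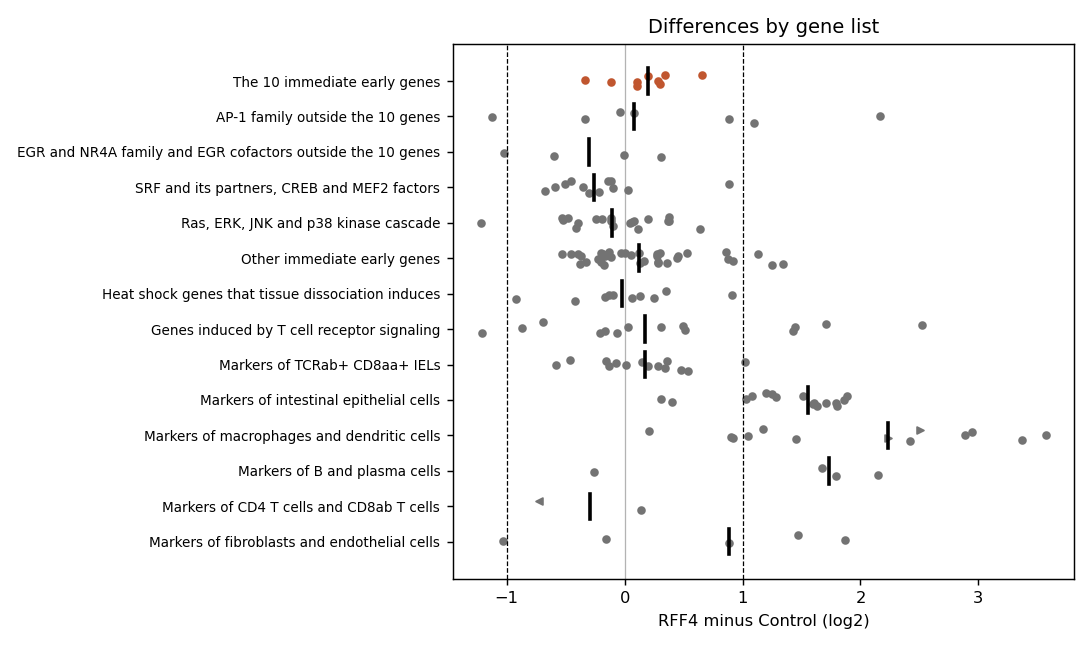
RFF4 minus Control (log2) of each gene with a difference, by list, with the 9 immediate early genes in red, bars at list medians, dashed lines at 2-fold and triangles for bounds. Under 75th percentile scaling the immediate early genes (median 0.20) and IEL markers (0.18) sit near 0, and epithelial (1.55) and macrophage and dendritic cell markers (2.23) sit higher.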

How the data were processed

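Total RNA from pooled, sorted IELs was labelled with Cy3 and hybridized to 1-colour arrays. The authors deposited Agilent Feature Extraction 10.7.1.1 output, whose intensity values are background-subtracted linear signals, not normalized between arrays. They also deposited a table normalized in GeneSpring, with settings not given in the sources used here and a scale that the table does not state. Its difference between arrays equalled the log2 ratio of the deposited intensities plus 1.16 for 100% of 55679 probes within 0.01, and 6231 of its 62976 lines hold no value.

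Intensities were converted to log2 and scaled by subtracting the 75th percentile of the 59305 gene spots on the array. Control and outlier spots were left out (102 outliers on Control, 131 on RFF4), no gene spot was saturated, and spots of a probe were averaged. A probe counted as well above background where the scanner software marked 50% or more of the spots so. Among 29150 probes with a RefSeq accession, 27509 matched a symbol of GRCm38.p6. The probe brightest over both arrays stood for a gene. Of 20887 genes, 12955 had such a probe on both arrays and 558 on 1 array, which gave a bound against the higher of the lowest signal well above background and the dim probe's own. A further 711 had a bound under 1-fold and 6663 were well above background on neither, and none of these was given a difference. The number of arrays limits the precision, and the spot SD covers technical error only. Of the 2 spot SDs, the smaller was used to judge the alternatives, chosen with both values seen.

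Alternatives were the median, quantile, cyclic loess and spike-in scalings, normexp with an offset of 50 (limma 3.58.1 in R 4.3.3), the normalized table, the mean of a gene's probes, a stricter filter that required both arrays, no filter, and outlier spots kept. The scripts (Python 3.11.15) were tested on simulated data. The genes and lists were chosen with earlier results of these data known. By rule all 10 genes were named, with genes past 2-fold from the lists outside the cell type markers (at most 6 per list), close family members whatever their value, a few defining markers and Rbpj. Other names are said to be picked after their values were seen or to complete a list.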

Additional observations from a re-analysis of the deposited data

How the results depend on the processing

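The median difference of the 9 genes with a value was 0.025 with median scaling, -0.089 with cyclic loess, -0.93 with spike-in controls set equal and -0.060 with normexp. With spike-in controls set equal, 4 of the 9 were more than 2-fold lower, as were 8091 of all genes, with 198 higher. Median scaling put 1087 genes lower, and no filter put 6272 higher. The share of calls that were higher was 70.9% in the reported setting, 54.8% with median scaling, 60.4% with cyclic loess, 2.39% with spike-in controls set equal and 86.5% without a filter. The cause was not tested.

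Median scaling gave Fos -0.29, Fosb 0.11, Jun 0.48, Junb -0.069, Jund 0.17, Egr1 0.12, Egr2 -0.072, Nr4a1 0.025 and Nr4a2 -0.51. Spike-in controls set equal gave Fos -1.24, Fosb -0.84, Jun -0.47, Junb -1.02, Jund -0.78, Egr1 -0.83, Egr2 -1.02, Nr4a1 -0.93 and Nr4a2 -1.46. Cyclic loess gave Fos -0.40, Fosb 0.010, Jun 0.23, Junb -0.089, Jund -0.11, Egr1 0.11, Nr4a1 -0.19 and Nr4a2 -0.75. Normexp gave Fos -0.32, Fosb 0.073, Jun 0.39, Junb -0.13, Jund 0.093, Egr2 -0.092, Nr4a1 -0.060 and Nr4a2 -0.59. Quantile normalization gave Jun 0.16, Jund -0.20, Nr4a1 -0.20 and Nr4a2 -0.81. The normalized table, the mean of probes, both filters and kept outlier spots moved none of the 9 by more than the technical SD of 0.16.

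List medians moved with the scaling too. With median scaling they were -0.094 for the AP-1 family, -0.47 for EGR and NR4A relatives, -0.44 for SRF, CREB and MEF2 factors, -0.28 for the kinase cascade, -0.055 for other immediate early genes, -0.19 for heat shock genes, -0.0051 for receptor-induced genes, 0.0007 for IEL markers, 1.38 for epithelial, 2.06 for macrophage and dendritic, 1.56 for B and plasma, -0.47 for CD4 and CD8αβ, and 0.71 for fibroblast and endothelial markers. With spike-in controls set equal they were, in the same order, -1.04, -1.42, -1.39, -1.23, -1.005, -1.14, -0.95, -0.95, 0.43, 0.72, 0.61, -1.42 and -0.24, and Fosl1 turned to -0.029 and Gzma to -0.10. Cyclic loess gave -0.081 for the AP-1 family, -0.14 for other immediate early genes, -0.39 for heat shock genes, -0.038 for receptor-induced genes, -0.24 for IEL, 1.30 for epithelial, 1.82 for macrophage and dendritic, and 1.51 for B and plasma markers. Normexp gave -0.13 for the AP-1 family, -0.093 for other immediate early genes, -0.24 for heat shock genes, -0.033 for IEL, 1.34 for epithelial, 1.19 for macrophage and dendritic, 1.22 for B and plasma, and -0.079 for CD4 and CD8αβ markers. Quantile normalization gave -0.10 for other immediate early genes, -0.33 for heat shock genes, -0.23 for IEL, 1.38 for epithelial, and 2.02 for macrophage and dendritic markers. The mean of probes gave 0.31 for the AP-1 family, 2.42 for macrophage and dendritic, and -0.66 for CD4 and CD8αβ markers. Keeping genes well above background on both arrays gave 1.45 and 0.13 for the last 2 of these, and no filter gave -0.0027 for EGR and NR4A relatives, 1.94 for macrophage and dendritic, 1.27 for B and plasma, and 1.05 for fibroblast and endothelial markers.

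No paired analysis was possible because each group has 1 array, and no replicate was left out.

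Signal over background, at a median of 9.47 on Control and 5.78 on the other array, limits dim genes such as Egr3, Egr4 and Fosl1.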
